A study of Homo sapiens with 32 samples.

Results

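The miRNAs described here are mir-21, mir-22 and the 3 hairpins of the miR-148 family, mir-148a, mir-148b and mir-152. They were chosen by name as well-known solitary hairpins and make up 5 of the 1513 miRNA rows of a table of precursor counts. The counts came from clones of 293T, a human embryonic kidney line. Wild-type clones 52, 55, 57 and 67 were set against clones 30, 34, 42 and 43, whose genotype is labelled DGCR8 delta103-126Q: prime editing was used in them to take out the stretch of DGCR8 that is reported to contact ERH. Every clone received 4 vectors in separate transfections, a pair of control shRNAs (1 and 2) and a pair against ERH (ERH shRNA 1 and 2), which gave 32 libraries in 8 groups of 4. All cells, controls included, were kept in puromycin at 2 µg/ml from 24 h after transfection and were sorted for the vector's fluorescence on day 5. The replicate was the clone, so that each genotype rests on 4 lines that are 1 clone each, and the 4 libraries of a clone share it. The DGCR8 edit and the level of ERH mRNA were not analysed here, so neither label was checked against its target.

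DGCR8 and the nuclease DROSHA form the Microprocessor, the nuclear complex that cuts miRNA hairpins out of long primary transcripts. ERH is a small nuclear protein that binds DGCR8, and it is known for helping a poorly cut hairpin that lies beside a well cut one in the same transcript, an effect called cluster assistance. A solitary hairpin has no such neighbour. miR-21 is widely known as a miRNA raised in tumours that represses PDCD4. miR-22 is a conserved miRNA made from the non-coding host transcript MIR22HG. The miR-148 family is known for repressing the DNA methyltransferase DNMT1.

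The main mature strands are printed below because they define which rows belong together. They were taken from RefSeq (GRCh38.p14), run 5′ to 3′, and carry the seed, bases 2 to 8, in capitals.
miR-21-5p: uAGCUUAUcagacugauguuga
miR-22-3p: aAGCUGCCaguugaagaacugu
miR-148a-3p: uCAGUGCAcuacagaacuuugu
miR-148b-3p: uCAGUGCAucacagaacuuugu
miR-152-3p: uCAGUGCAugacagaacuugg
The 3 family members shared the seed CAGUGCA, which no other human mature miRNA in that table held. Counted from the 5′ end, miR-148b-3p differed from miR-148a-3p by C9U and U10C. miR-152-3p differed from miR-148a-3p by C9U, U10G and U20G, and at 21 bases it was 1 base shorter than the 22 of each of its relatives. All 3 family members therefore differed outside the seed. The seed of miR-21-5p was also found in miR-590-5p, and that of miR-22-3p in no second entry.

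The Microprocessor acts on the hairpin rather than on the mature strand, and the rows of the table are named for hairpins. The counts are small RNA reads assigned to those names, so they do not measure the uncut hairpin. The hairpins of mir-21 and of the family, with the strand above in capitals, show where that strand lies in each precursor.
mir-21: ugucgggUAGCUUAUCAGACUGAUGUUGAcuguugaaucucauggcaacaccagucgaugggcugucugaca
mir-148a: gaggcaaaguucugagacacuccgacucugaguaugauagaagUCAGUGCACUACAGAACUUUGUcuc
mir-148b: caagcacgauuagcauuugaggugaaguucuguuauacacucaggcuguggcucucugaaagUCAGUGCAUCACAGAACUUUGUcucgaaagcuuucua
mir-152: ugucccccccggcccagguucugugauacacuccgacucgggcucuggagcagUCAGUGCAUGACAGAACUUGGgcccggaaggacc
The mature strand lay in the 5′ arm of mir-21 and in the 3′ arm of the family hairpins. GC content was 48.6% for mir-21, 45.6% for mir-148a and 43.4% for mir-148b, against 63.2% for mir-152. The hairpin of mir-22 is named only. Both arms of a hairpin shared a row, so the counts do not show which strand was read.

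Each of the 5 hairpins stood alone in GENCODE release 29 (GRCh38). MIR21 lies on the plus strand at chr17:59841266-59841337, in an exon of the 1 transcript of VMP1 that spans it. MIR22 lies on the minus strand at chr17:1713903-1713987, in an exon of all 19 spanning transcripts of MIR22HG. MIR148A lies on the minus strand at chr7:25949919-25949986 with no host gene on its strand. MIR148B lies on the plus strand at chr12:54337216-54337314, in an intron of COPZ1, and MIR152 on the minus strand at chr17:48037161-48037247, in an intron of COPZ2. COPZ1 and COPZ2 are paralogous genes for the zeta subunit of the COPI vesicle coat. The nearest annotated hairpin on the same strand was 119180 bases away for mir-152 (MIR1203) and at least 303171 bases away for the other members. The genome build behind the counts is not given in the sources used here, and these positions are those of the annotation.

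Libraries held 1318923 to 6222790 miRNA counts, and the 5 members supplied 2.86% to 6.24% of them (median 3.77%). Counts per library ran from 23088 to 127311 for mir-148a, from 16435 to 76079 for mir-148b and from 8362 to 59197 for mir-21. They ran from 766 to 4408 for mir-152 and from 204 to 1717 for mir-22, the member with the least depth. The spike-in RNAs gave 9139 to 33090 counts per library. No miRNA defines 293T cells. Among 15 rows known from other cell types, mir-126, known from endothelium, stood at 2239 to 7715 CPM, and 1 of 5 muscle rows was at 0 in every group. Under control shRNAs, summed levels of the 3 blood rows ran from 157 to 2395 CPM in deletion clones and from 201 to 397 CPM in wild-type clones. The fitted log2 differences between these genotypes were 2.33 for mir-223, 1.68 for mir-142 and 0.02 for mir-150. Their part in the results was not tested.

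Levels are given as CPM, counts relative to library size after TMM scaling, from the sum of the 2 libraries of an arm in a clone. Under control shRNAs in wild-type clones, mir-148a had the highest level of the 5 at 23116 ± 3302 CPM (SD, n = 4), 13th among all rows. mir-148b followed at 14899.9 ± 669.5 CPM, and no clone's mir-148b reached its mir-148a. mir-21 stood at 8429.8 ± 2034 CPM, mir-152 at 865 ± 198 CPM and mir-22 at 398 ± 51.3 CPM. Each neighbouring pair in this order was separated in all 4 clones, without overlap. Counts of different hairpins were not corrected for unequal ligation or length, so this order is one of reads.

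**Figure D1:**
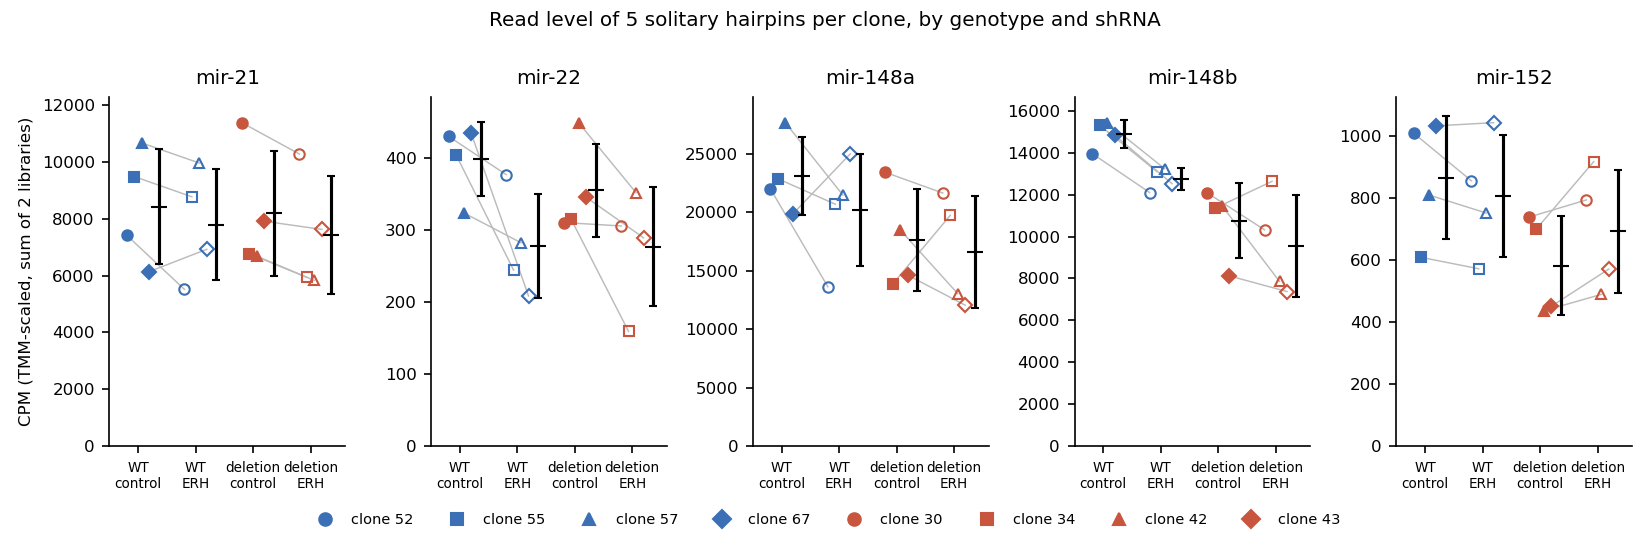
Level of each hairpin in CPM (linear axis from 0, 1 panel per hairpin) in the 4 combinations of genotype and shRNA arm; each point is 1 clone, lines join the arms of a clone, and bars mark the mean ± SD over 4 clones. The clones of mir-148b under control shRNAs are separated by genotype (13971 to 15445 CPM against 8121 to 12096 CPM), and mir-22 is lower under ERH shRNAs in every clone.

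ERH knockdown was asked to show whether hairpins without a neighbour change when ERH is reduced. mir-22 fell by 0.47 on the log2 scale, to 0.721 of its control level, and was lower in 8 of 8 clones. The other 4 members did not pass the test. mir-21, mir-148a and mir-148b had fitted values between −0.21 and −0.13, and mir-152 had 0.07. Of the 667 rows tested, 36.6% were called at an adjusted p under 0.05 and 16.5% were called lower. The 1 call among 5 members, 20%, lay between these shares. All 5 members had a mean of at least 100 CPM. Among the 192 rows at that level 50.5% were called, and 71 rows were called lower. Against rows of their own level, the 20% of the members was thus below the share called.

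For mir-22, the wild-type clones 52, 55, 57 and 67 had 429.7, 404, 324 and 435 CPM under control shRNAs. The same clones had 377, 244, 282 and 208 CPM under ERH shRNAs. Every clone was lower under ERH shRNAs, although the arms overlapped, with clone 52 under ERH shRNAs above clone 57 under control shRNAs. Deletion clones 30, 34, 42 and 43 had 310.1, 315, 449 and 345 CPM under control shRNAs and 305, 159, 352 and 289 CPM under ERH shRNAs. Clone 30 was nearly level, at −0.02 on the log2 scale. Clones 67 and 34 changed most, at −1.06 and −0.98. The edgeR quasi-likelihood test with the clone as a block gave −0.47 ± 0.13 (SE; 95% interval −0.75 to −0.20), with an adjusted p of 0.00885. A lower level in all 8 clones was found for 9.6% of the rows tested. Without the clone block the adjusted p was 0.144, and the call was also lost when libraries were scaled by spike-ins (−0.01, adjusted p = 0.954) or by total miRNA counts (−0.20, adjusted p = 0.291).

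mir-21 went from 7416, 9489, 10673 and 6141 CPM in wild-type clones 52, 55, 57 and 67 to 5518, 8777, 9966 and 6928 CPM under ERH shRNAs. In deletion clones 30, 34, 42 and 43 it went from 11388, 6775, 6683 and 7915 CPM to 10282, 5937, 5832 and 7628 CPM. It was lower in 7 of 8 clones, with clone 67 the exception, and differences between clones were larger than those between arms. The fitted difference was −0.13 ± 0.10 (edgeR adjusted p = 0.293).

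mir-148a had 22026, 22885, 27687 and 19864 CPM in wild-type clones 52, 55, 57 and 67 under control shRNAs and 13634, 20700.0, 21487 and 25012 CPM under ERH shRNAs. Deletion clones 30, 34, 42 and 43 had 23432, 13875, 18493 and 14624 CPM under control shRNAs and 21658, 19753, 13041 and 12051 CPM under ERH shRNAs. Its changes ran from −0.69 in clone 52 to 0.51 in clone 34, with 6 clones lower and 2 higher. The mean change was small against that spread, at −0.16 ± 0.12 (edgeR adjusted p = 0.310).

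In the sums of 2 libraries, mir-148b changed evenly in wild-type clones, by −0.21, −0.23, −0.22 and −0.25 in clones 52, 55, 57 and 67. The single vectors were less even. ERH shRNA 1 gave −0.23, −0.06, −0.12 and −0.24 and ERH shRNA 2 gave −0.40, −0.28, −0.20 and 0.02 in these clones. These clones went from 13971, 15328, 15445 and 14855 CPM to 12108, 13099, 13249 and 12532 CPM, and the 2 arms did not overlap, as for 23% of the 613 rows tested in wild-type clones. Deletion clones were uneven, from −0.55 in clone 42 to 0.16 in clone 34, with 12096, 11345, 11471 and 8121 CPM under control shRNAs in clones 30, 34, 42 and 43 and 10324, 12643, 7859 and 7376 CPM under ERH shRNAs. Over all clones the fitted value was −0.21 ± 0.10 (edgeR adjusted p = 0.0926), and in the wild-type clones alone it was −0.20 (adjusted p = 0.348).

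mir-152 was the member with a value above 0. Wild-type clones 52, 55, 57 and 67 went from 1008, 608, 809 and 1032 CPM to 855, 571, 751 and 1043 CPM, a difference within 0.24 on the log2 scale in each clone. Deletion clones 30, 34, 42 and 43 went from 738, 699, 436 and 450.1 CPM to 793, 917, 489 and 570.4 CPM, so that all 4 were higher in these sums, by 0.10 to 0.39. With each ERH shRNA singly, 3 of the 4 were higher. The test over 8 clones gave 0.07 ± 0.11 (edgeR adjusted p = 0.642), and the deletion clones alone gave 0.24 ± 0.11 (adjusted p = 0.161).

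**Figure D2:**
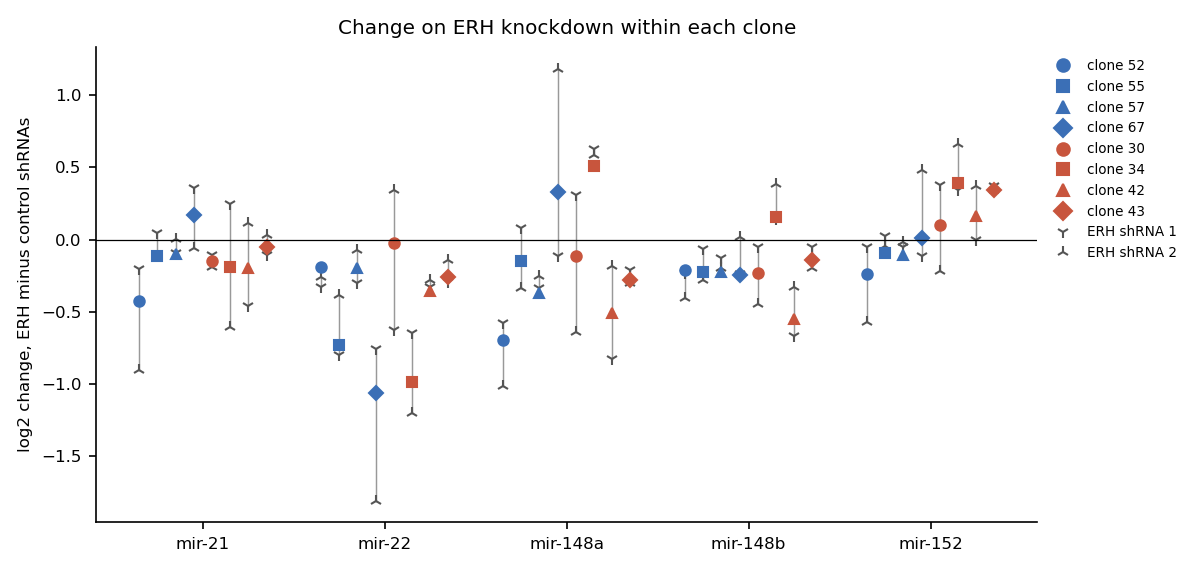
Change in log2 CPM from control to ERH shRNAs within each clone, for each hairpin; large symbols are the sums of 2 shRNAs (1 symbol per clone, coloured by genotype) and small marks are ERH shRNA 1 and ERH shRNA 2 separately. All 8 large symbols of mir-22 lie below 0, between −1.06 and −0.02, whereas mir-148a runs from −0.69 to 0.51.

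Within one genotype no member passed the edgeR test on the TMM scale with the settings used above, but some passed with other settings. Among wild-type clones 31.3% of 613 rows were called, and mir-22 had −0.52 ± 0.20 (edgeR adjusted p = 0.0525). Among deletion clones 10.3% of 633 rows were called, and mir-22 had −0.41 ± 0.15 (adjusted p = 0.0978). mir-22 was thus lower in 4 of 4 clones of each genotype. DESeq2 called mir-22 in both, at −0.65 (adjusted p = 0.00692) in wild-type and −0.42 (adjusted p = 0.0348) in deletion clones. edgeR called it in wild-type clones with each library as its own sample (−0.56, adjusted p = 0.00948) and without clone 52 (−0.56, 0.0268). In deletion clones edgeR called it with no filter (−0.43, adjusted p = 0.0334). Without clone 34, mir-148a (−0.32, edgeR adjusted p = 0.0454) and mir-148b (−0.33, 0.0451) passed in deletion clones. Scaled by total miRNA counts, mir-152 was called higher in deletion clones, at 0.43 (edgeR adjusted p = 0.0206).

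The 2 ERH shRNAs were also compared singly with the control sums, which both comparisons share. mir-22 passed the test with ERH shRNA 1, at −0.53 ± 0.11 (edgeR adjusted p = 0.00131), and was lower in 8 of 8 clones. That call was lost with spike-in scaling (−0.04, adjusted p = 0.864), with total miRNA counts (−0.28, adjusted p = 0.0645) and without the clone block (−0.51, adjusted p = 0.100). With ERH shRNA 2 it had −0.49 ± 0.19 (adjusted p = 0.0504) and was lower in 7 of 8 clones, over a range from −1.81 to 0.34. For this vector DESeq2 called it (−0.52, adjusted p = 0.0299), as did edgeR with no filter (−0.48, 0.0394) and without clone 30 (−0.56, 0.0388). It was not called with spike-in scaling (−0.11, edgeR adjusted p = 0.781) or total miRNA counts (−0.22, 0.485). The calls over all rows were 31.3% of 655 with ERH shRNA 1 and 26.9% of 657 with ERH shRNA 2. mir-21 had −0.06 and −0.25, mir-148a −0.14 and −0.15, mir-148b −0.17 and −0.20 and mir-152 0.10 and 0.10 with ERH shRNAs 1 and 2, and none of these passed.

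The 2 control vectors served as background. Control shRNA 2 against control shRNA 1 called 0% of 571 rows with edgeR (48 rows at an unadjusted p under 0.05, and 1 row called by DESeq2). mir-22 nevertheless had −0.25 ± 0.14 there (adjusted p = 0.600) and mir-152 had 0.19 ± 0.11 (adjusted p = 0.611), the largest values of the 5 in each direction. The remaining members lay between −0.10 and 0.03.

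With control shRNAs, deletion clones were set against wild-type clones to show what loss of the ERH contact site does to these hairpins. mir-148b fell, to 0.724 of its wild-type level, and was the member whose genotypes did not overlap. mir-148a and mir-152 had negative values that did not pass the test, while mir-21 and mir-22 had values nearer 0. The background was 25.9% of 536 rows called, 7.09% called lower, 29.3% without overlap between genotypes and 10.3% without overlap and lower in deletion clones. The 1 member called, 20% of 5, was lower and without overlap, which is below the shares in either direction and above the shares of rows that were lower. At or above a mean of 100 CPM, 26.6% of 192 rows were called, with 28 rows called lower.

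For mir-148b, the lowest wild-type clone had 13971 CPM and the highest deletion clone 12096 CPM. Group means were 14899.9 ± 669.5 CPM in wild-type and 10758 ± 1789 CPM in deletion clones (SD, n = 4 each), and clone 43 stood below the other deletion clones at 8121 CPM. The fitted difference was −0.47 ± 0.15 (95% interval −0.80 to −0.14), with an edgeR adjusted p of 0.0405. This call was lost when any 1 of the 8 clones was left out, with values from −0.50 to −0.37 and adjusted p from 0.0610 to 0.184. With control shRNA 1 alone the adjusted p was 0.0506, with control shRNA 2 alone it was 0.0974, and under spike-in scaling the value was 0.01 (adjusted p = 0.991).

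mir-152 had the largest difference of the 5 on the TMM scale, from 865 ± 198 CPM in wild-type to 581 ± 160.0 CPM in deletion clones. Its genotypes overlapped, since wild-type clone 55 at 608 CPM lay below deletion clones 30 and 34 at 738 and 699 CPM. The fitted value of −0.57 ± 0.24 had an edgeR adjusted p of 0.0982, and it was −0.0021 with spike-in scaling and −0.15 with total miRNA counts. mir-148a went from 23116 ± 3302 CPM to 17606 ± 4379 CPM, with deletion clone 30 among the wild-type values, and its fitted value was −0.39 ± 0.19 (adjusted p = 0.138). On the TMM scale all 3 family members lay below 0, of which 1 passed, whereas with spike-ins mir-148a had 0.12 and mir-148b 0.01. Among all rows at or above a mean of 100 CPM, 137 of 192 also lay below 0 on the TMM scale.

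mir-21 gave 8429.8 ± 2034 CPM in wild-type and 8190.4 ± 2205 CPM in deletion clones, a difference of −0.04 ± 0.23 (edgeR adjusted p = 0.921). The sign of this value turned without clone 57, to 0.19. mir-22 gave 398 ± 51.3 CPM and 355 ± 64.6 CPM, a difference of −0.15 ± 0.23 (adjusted p = 0.646). The 95% intervals ran from −0.53 to 0.45 for mir-21 and from −0.64 to 0.34 for mir-22.

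Under ERH shRNAs the genotypes were compared again. 0% of 569 rows were called with edgeR, with 87 rows at an unadjusted p under 0.05 and 8 called by DESeq2, and 10.9% of rows did not overlap between genotypes. mir-148b had −0.39 ± 0.19 (adjusted p = 0.355), from 12747 ± 526 CPM in wild-type to 9551 ± 2432 CPM in deletion clones, and deletion clone 34 at 12643 CPM lay within the wild-type range. mir-148a had −0.27, mir-152 −0.19, mir-21 −0.05 and mir-22 0.02, with adjusted p between 0.595 and 0.965. All 5 members overlapped between genotypes in this arm.

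Whether the knockdown changes the members differently in the 2 genotypes was tested by the interaction. No row passed (0% of 667 with edgeR, 127 at an unadjusted p under 0.05, 16 called by DESeq2). mir-152 had the largest value of the 5, 0.40 ± 0.17 (95% interval 0.03 to 0.77, adjusted p = 0.226), where a positive value means that the change with ERH shRNAs was higher in deletion clones. In the sums of 2 libraries its 4 deletion clones had changes of 0.10 to 0.39 and its wild-type clones −0.24 to 0.01. The genotypes did not overlap in this change, as was found for 12.3% of the rows. With single vectors they overlapped. ERH shRNA 1 gave −0.11 to 0.02 in wild-type and −0.0048 to 0.38 in deletion clones. For ERH shRNA 2 the ranges were −0.57 to 0.48 and −0.22 to 0.67. mir-22 had 0.18 (adjusted p = 0.747), mir-148a 0.16 (0.768), mir-148b 0.08 (0.849) and mir-21 0.01 (0.982). For mir-21 the 95% interval was −0.34 to 0.36.

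**Figure D3:**
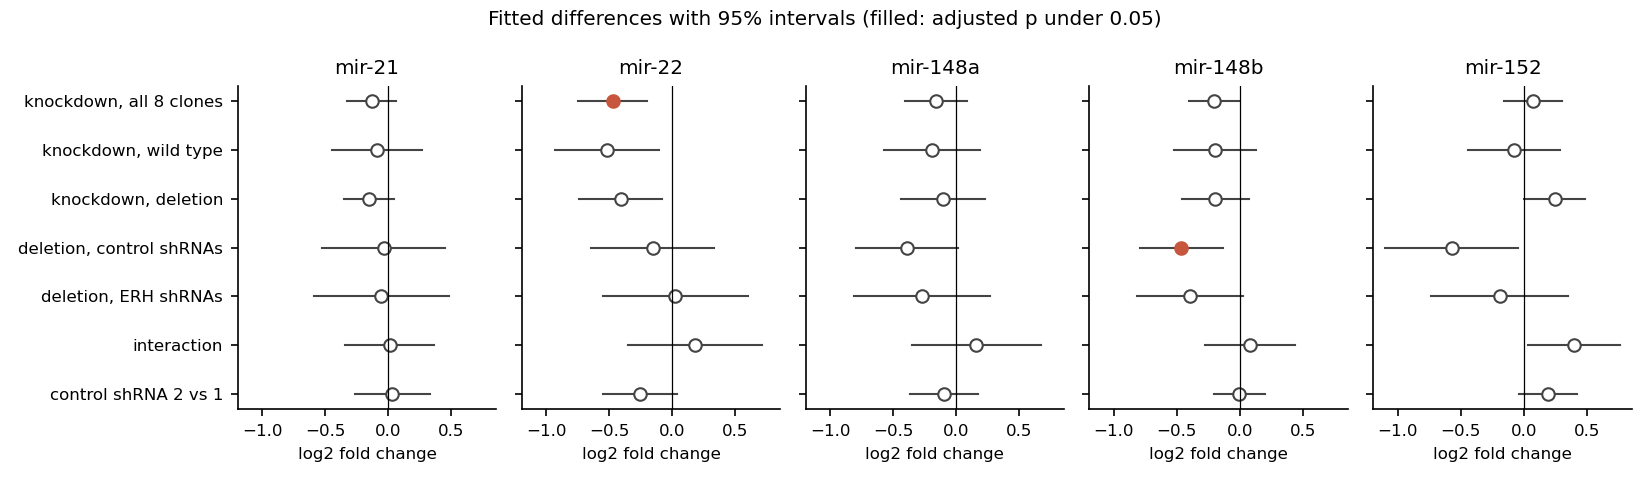
Fitted log2 fold change of each hairpin (1 panel each) in 7 comparisons, with 95% intervals from the edgeR fit as horizontal lines; filled points have an adjusted p under 0.05. Only mir-22 in the knockdown over all 8 clones (−0.47) and mir-148b in the deletion under control shRNAs (−0.47) are filled.

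The 3 family members differ in sequence outside the seed and in their primary transcripts, and ratios within a library compare them without scaling between libraries. The log2 ratio of mir-152 to mir-148b was −4.14 ± 0.40 under control shRNAs in wild-type clones and −4.24 ± 0.33 in deletion clones. Under ERH shRNAs it was −4.02 ± 0.40 in wild-type and −3.80 ± 0.15 in deletion clones (SD, n = 4 each). Within clones it was higher under ERH shRNAs in 7 of 8, by 0.28 ± 0.23, with p = 0.0156 in a two-sided exact permutation test over all sign flips. Over the 12 ratio tests the Benjamini-Hochberg adjusted p was 0.188, which did not pass. The change was 0.12 ± 0.12 in wild-type and 0.44 ± 0.21 in deletion clones, a difference of 0.32 with an exact permutation p of 0.0571 over 70 arrangements (adjusted p = 0.343). The smallest p these designs allow are 0.00781 and 0.0286.

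The log2 ratio of mir-148a to mir-148b was 0.62 ± 0.18 in wild-type and 0.70 ± 0.29 in deletion clones under control shRNAs. It changed by 0.05 ± 0.32 on knockdown, with 5 clones higher and 3 lower (p = 0.703 by exact permutation, 0.810 after adjustment). For mir-21 to mir-22 the log2 ratio was 4.38 ± 0.53 in wild-type and 4.51 ± 0.53 in deletion clones under control shRNAs. It was higher on knockdown in 6 of 8 clones, by 0.34 ± 0.50 (exact permutation p = 0.109, adjusted p = 0.438). Genotype differences of the 3 ratios, within either arm, had two-sided exact permutation p of at least 0.343 (adjusted p of at least 0.810).

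**Figure D4:**
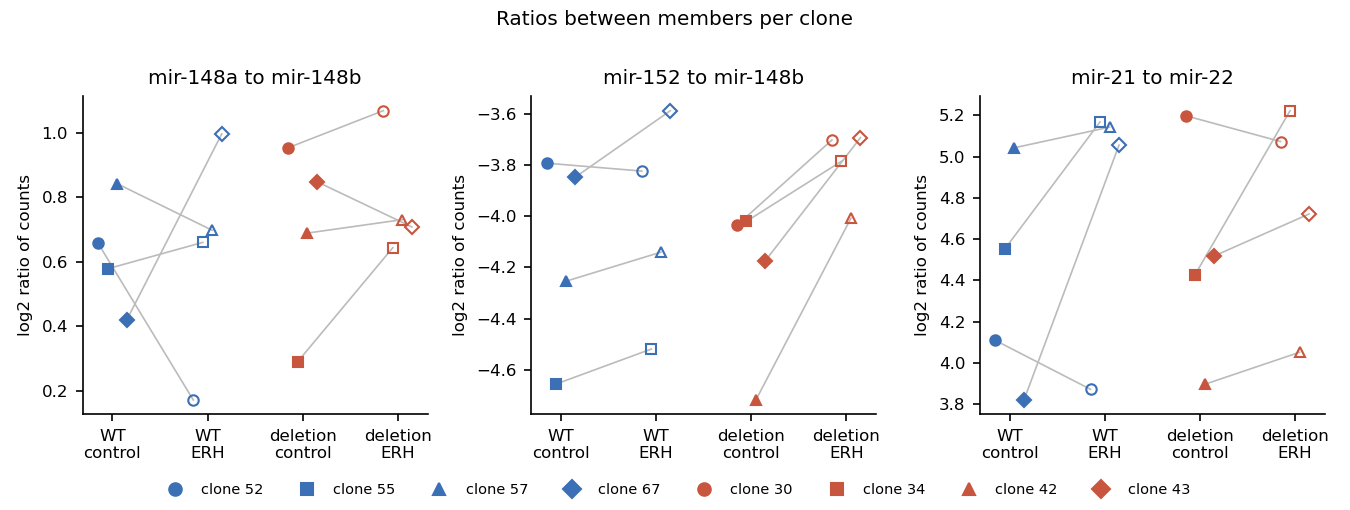
Log2 ratio of counts between 2 hairpins in each clone, for mir-148a to mir-148b, mir-152 to mir-148b and mir-21 to mir-22 (1 panel each), by genotype and shRNA arm; each point is 1 clone and lines join its arms. The ratio of mir-152 to mir-148b is higher under ERH shRNAs in 7 of 8 clones, and clone 52 stands apart under ERH shRNAs in the ratio of mir-21 to mir-22 at 3.87.

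The direction of 3 of the 5 knockdown values depended on the scale. With the TMM scale used above, the median over all rows was 0.06 on knockdown. It was 0.52 with spike-in scaling and 0.33 with total miRNA counts. On these scales mir-21 had 0.33 and 0.14, mir-148a 0.30 and 0.12 and mir-148b 0.25 and 0.07, none called, and mir-22 had −0.01 and −0.20. mir-152, not called on the TMM scale, was called higher on both, at 0.54 (edgeR adjusted p = 0.0262) and 0.35 (adjusted p = 0.0113). Rescaling moves all rows by nearly the same amount, so a member's distance from the median of all rows hardly changes by construction. This distance does not bear on whether a call holds. mir-22 was 0.53 below that median under each of the 3 scalings and mir-152 lay 0.01 to 0.02 above it. Rows at or above a mean of 100 CPM had a lower median on the TMM scale, −0.20. Over all rows the calls split into 134 higher and 110 lower on the TMM scale, 233 and 22 with spike-ins and 210 and 36 with total counts.

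Values also depended on the scale in the deletion under control shRNAs. There the median over all rows was −0.03 on the TMM scale, 0.42 with spike-ins and 0.39 with total counts. mir-148b lay 0.43, 0.41 and 0.43 below it under the 3 scalings, a distance that rescaling again hardly changes by construction. Its own value was 0.01 with spike-ins and −0.03 with total counts. Rows at or above a mean of 100 CPM had a median of −0.26 on the TMM scale. mir-21 had 0.49 and 0.38 on these scales, mir-22 0.24 and 0.27, mir-148a 0.12 and 0.03 and mir-152 −0.0021 and −0.15, none called. Over all rows the calls were 101 higher and 38 lower on the TMM scale, 134 and 0 with spike-ins and 154 and 4 with total counts.

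The members were set beside clustered hairpins, defined as rows whose hairpin lay within 10 kb of that of another tested row on the same strand. On knockdown the 129 clustered rows had a median log2 fold change of −0.33, with 59 called lower and 4 higher. The 524 unclustered rows had a median of 0.21 and the 5 members one of −0.16. The members thus lay between these medians. A list of 28 well-known clustered hairpins, of which 27 were tested, had a median of −0.30 with 18 called lower and 0 higher. A list of 28 other well-known solitary hairpins had a median of −0.18 with 7 called lower and 1 higher, close to the median of the members.

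The level of a row went with these medians. All 5 members had a mean of at least 100 CPM. Among rows at or above 100 CPM the knockdown median was −0.33 for 65 clustered and −0.12 for 126 unclustered rows, and −0.20 for all 192. Below 100 CPM it was −0.30 for 64 clustered and 0.34 for 398 unclustered rows. The median of the members, −0.16, lay between the unclustered and the clustered median at their own level, and mir-22 alone lay below both.

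In the deletion under control shRNAs the 106 clustered rows had a median of −0.39, with 20 called lower and 2 higher, and the 422 unclustered rows 0.19. The 5 members had a median of −0.39. The listed clustered hairpins had −0.47, with 8 of 27 called lower, and the listed other solitary hairpins −0.34, with 2 of 28 called lower and 2 higher. At or above 100 CPM the median was −0.45 for 65 clustered and −0.19 for 126 unclustered rows. In this comparison mir-148b at −0.47 and mir-152 at −0.57 had values below the clustered median, whereas mir-21 and mir-22 lay above the unclustered median of their level. The 2 comparisons share the control sums of all 8 clones, those of the deletion clones with opposite sign, and these lists are described without a test.

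**Figure D5:**
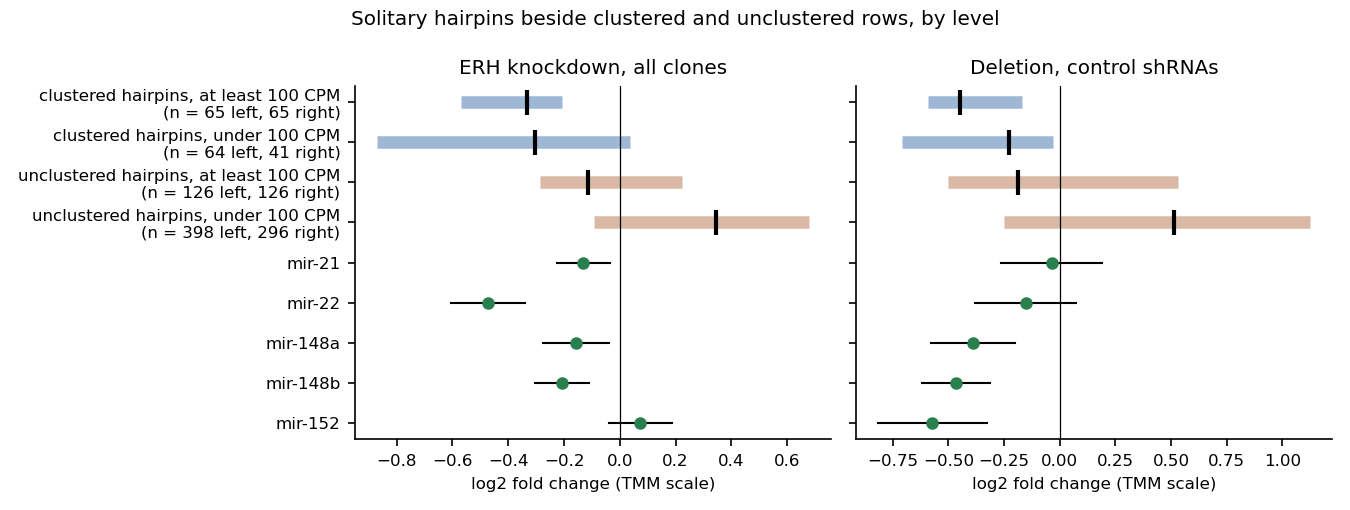
Log2 fold change on the TMM scale for the 5 hairpins (points with lines of ± 1 SE) and for clustered and unclustered rows split at a mean of 100 CPM (thick bar, interquartile range; vertical mark, median), in the knockdown over 8 clones (left) and in the deletion under control shRNAs (right). At or above 100 CPM the clustered medians lie at −0.33 and −0.45 and the unclustered ones at −0.12 and −0.19; below it the unclustered medians lie at 0.34 and 0.51.

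The rows whose log2 CPM ran most like that of a member over the 16 sums were found among 192 rows at or above 100 CPM. These 16 points share clones, arms and scaling, and the Pearson r describes them without a test. mir-22 ran most like mir-221 (r = 0.79), mir-222 (0.77) and mir-31 (0.77). mir-21 ran most like mir-9 (0.76), mir-218 (0.75) and mir-32 (0.72). The family members had different nearest rows, mir-126 (0.88), mir-9 (0.84) and mir-301a (0.84) for mir-148a, and mir-183 (0.87), mir-30e (0.86) and mir-182 (0.82) for mir-148b. For mir-152 they were mir-151a (0.68), let-7e (0.68) and mir-324 (0.65), all lower than the nearest rows of the other members.

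Among the members themselves, mir-148a and mir-148b ran together most (r = 0.77). mir-148b and mir-152 had r = 0.59, mir-21 and mir-148a 0.58 and mir-148a and mir-152 0.48. mir-22 ran with none of the other 4, with r between −0.25 and 0.05. mir-126, the row nearest to mir-148a, is the endothelial row named above. It had 4345 to 7715 CPM in wild-type clones under control shRNAs and 2575 to 5830 CPM in deletion clones under control shRNAs. Under ERH shRNAs it had 3081 to 5929 CPM in wild-type and 2239 to 4517 CPM in deletion clones, and its part in the values of mir-148a was not tested.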

How the data were processed

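Small RNA was measured in 32 libraries of 8 clones (QIAGEN QIAseq miRNA kit, 100 ng of 400 ng total RNA mixed with 4 spike-in RNAs, per the labels' protocols). The authors deposited raw read counts per precursor, 1513 miRNA rows and 4 spike-in rows. SAMtools is named in the submitters' processing notes; the aligner, build, trimming and use of molecular identifiers are not given in the sources used here. If amplification copies were counted, counting error is larger than the counts imply.

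Here a clone's 2 libraries with the same kind of shRNA were added up (16 sums) and tested with edgeR 4.0.16 in R 4.3.3 (glmQLFit, glmQLFTest) after filterByExpr on the design and TMM scaling over miRNA rows. Benjamini-Hochberg adjusted p under 0.05 over all rows tested counted as called. Knockdown and interaction fits had the clone as a block, since the labels give each clone all 4 vectors. A clone's deviations in the 2 arms correlated at r = 0.42 to 0.86. CPM were TMM-scaled, and log2 CPM used a prior count of 2. Ratios were tested by exact permutation. No library was a copy of another (48 pairs, chi-square per degree of freedom at least 75.4). Mature and hairpin sequences came from RefSeq and positions from GENCODE release 29. GC content was not compared between lists because 501 of the 667 tested rows had a hairpin sequence.

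The named rows are the 5 members and, for each, the 3 rows at or above a mean of 100 CPM with the highest r. Members and lists were chosen with earlier results of these data known. The split of lists at 100 CPM and the ratios without pairing were added after the data were seen. Alternatives were DESeq2 1.42.0, spike-in or total scaling, 2 filters, single libraries, no replicate block, single shRNAs, 1 joint fit without the clone block, counts added to ratios, and leaving out each clone. The edgeR fit was tested on simulated data.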

Additional observations from a re-analysis of the deposited data

Results flagged for a closer look

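Under ERH shRNAs, the log2 ratio of mir-21 to mir-22 in wild-type clone 52 was 3.87, while the other 3 wild-type clones lay between 5.06 and 5.17. The gap to its nearest neighbour took up most of the range of the 4 clones, which marked it among 48 such groups of 4. Chance marks about 1 in 20 groups. In the same arm clone 52 had the lowest mir-21 (5518 CPM) and the highest mir-22 (377 CPM) of the wild-type clones.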

How the results depend on the processing

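Over the alternatives, values of the members kept direction and side of the threshold in 520 cases. Without a turn in direction they lost a call in 19 and gained one in 18. In the others the direction turned, and there mir-148b in the deletion with spike-in scaling also lost its call. With spike-in scaling the knockdown gave 0.33 (mir-21), −0.015 (mir-22, call lost), 0.30 (mir-148a), 0.25 (mir-148b) and 0.54 (mir-152, call gained) over all clones, 0.53, 0.093, 0.42, 0.42 and 0.54 in wild-type clones, and 0.14 (mir-21), 0.18 (mir-148a) and 0.094 (mir-148b) in deletion clones, with 102 rows called there. The deletion under control shRNAs gave 0.49 (mir-21), 0.24 (mir-22), 0.12 (mir-148a) and 0.0089 (mir-148b, call lost), and the interaction −0.39, −0.21, −0.24, −0.32 and −0.0015 in the order of the wild-type values. ERH shRNA 1 gave 0.42 (mir-21), 0.34 (mir-148a) and 0.32 (mir-148b), ERH shRNA 2 gave 0.15, 0.24 and 0.19, and the control vectors gave 0.038 (mir-148a) and 0.13 (mir-148b). With total miRNA counts the knockdown gave 0.14 (mir-21), −0.20 (mir-22, call lost), 0.12 (mir-148a), 0.067 (mir-148b) and 0.35 (mir-152, call gained), in wild-type clones 0.25 (mir-21), 0.15 (mir-148a), 0.14 (mir-148b) and 0.26 (mir-152), and in deletion clones 0.033 (mir-21) and 0.082 (mir-148a), with 109 rows called. The deletion gave 0.38 (mir-21), 0.27 (mir-22), 0.030 (mir-148a) and −0.034 (mir-148b, call lost) under control shRNAs and 0.17 (mir-21) and 0.049 (mir-152) under ERH shRNAs. The interaction gave −0.22 (mir-21), −0.047 (mir-22), −0.067 (mir-148a) and −0.15 (mir-148b), with 29 rows called. ERH shRNA 1 gave 0.19 (mir-21), 0.11 (mir-148a) and 0.079 (mir-148b), ERH shRNA 2 gave 0.024, 0.12 and 0.069, and the control vectors 0.035 (mir-148b).

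Without the replicate block, mir-22 had −0.44 on knockdown (adjusted p = 0.144) and mir-148b 0.0065 between control vectors. Calls dropped from 244 to 28 on knockdown, from 192 to 74 in wild-type clones, from 65 to 13 in deletion clones, and to 38 and 24 with ERH shRNAs 1 and 2. With only rows of a mean count of at least 100 kept, fewer rows were tested, and 148, 124, 76, 29 and 110 rows were called for the knockdown, its wild-type clones, the deletion under control shRNAs, the interaction and ERH shRNA 2, and 1 between control vectors. The deletion then gave 0.12 (mir-21), 0.0059 (mir-22) and −0.30 (mir-148b, call lost), the interaction −0.14 (mir-21) and −0.076 (mir-148b), ERH shRNA 1 0.048 (mir-21) and the control vectors 0.0035 (mir-148b). With no filter, 1 row was called for the deletion under ERH shRNAs and 19 for the interaction, mir-152 had 0.0072 in wild-type clones, and mir-21 had 0.0042 in the deletion, −0.13 in the interaction and −0.0026 between control vectors. mir-148b then had −0.44 in the deletion (call lost) and −0.063 in the interaction. With each library as its own sample, 104, 223, 55 and 52 rows were called for the knockdown in deletion clones, the deletion under control and under ERH shRNAs and the interaction. mir-148a (−0.39) and mir-152 (−0.58) then passed in the deletion, and mir-21 had −0.030 in the interaction. DESeq2 called 8 rows for the deletion under ERH shRNAs, 16 for the interaction and 1 between control vectors, and mir-22 had −0.067 in the first. In 1 joint fit over the 16 sums these were 3 rows for the deletion under ERH shRNAs, 12 for the knockdown in deletion clones, and −0.0081 for mir-22. That fit had no clone block, so it also dropped the pairing of arms within clones. With control shRNA 1 alone the deletion gave 0.058 (mir-21) and −0.46 (mir-148b, call lost), and with control shRNA 2 alone −0.51 (mir-148b, call lost) and 35 rows called. With ERH shRNA 1 alone mir-22 had −0.072, and with ERH shRNA 2 alone mir-21 had 0.016. From the vectors numbered 1, the ratio of mir-148a to mir-148b changed by −0.016 on knockdown and that of mir-152 to mir-148b by 0.0072 in the deletion. From those numbered 2, the genotype differences were −0.052 and −0.0095 for mir-148a to mir-148b under control and ERH shRNAs and −0.042 for mir-21 to mir-22 under control shRNAs. The causes were not tested.

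With each clone left out in turn, mir-22 stayed called on knockdown, from −0.52 to −0.41 (adjusted p 0.00614 to 0.0367), and mir-148b ran from −0.27 to −0.14 and was called in 1 of 8 cases. In the deletion under control shRNAs mir-148b ran from −0.50 to −0.37 (called in 0 of 8) and mir-21 from −0.17 to 0.19. Under ERH shRNAs mir-21 ran from −0.30 to 0.12 and mir-22 from −0.16 to 0.21. In the interaction the ranges were −0.10 to 0.063 (mir-21), −0.033 to 0.30 (mir-22), −0.11 to 0.30 (mir-148a) and −0.11 to 0.19 (mir-148b). In wild-type clones they were −0.18 to 0.092 (mir-21), −0.37 to 0.044 (mir-148a) and −0.12 to 0.043 (mir-152), and in deletion clones −0.32 to 0.020 (mir-148a). ERH shRNA 1 gave −0.14 to 0.013 (mir-21), ERH shRNA 2 −0.30 to 0.0026 (mir-148a), and the control vectors −0.047 to 0.14 (mir-21) and −0.082 to 0.028 (mir-148b). Rows called ran from 159 to 230 for the knockdown, 112 to 197 and 30 to 119 in wild-type and deletion clones, 83 to 129 and 0 to 1 for the deletion under control and ERH shRNAs, 0 to 35 for the interaction and 129 to 209 for ERH shRNA 1. The ratio of mir-148a to mir-148b ran from −0.026 to 0.13 (knockdown), −0.015 to 0.21 (deletion) and −0.079 to 0.28 (difference of the knockdown change). The ratio of mir-152 to mir-148b ran from −0.27 to 0.061 in the deletion. The ratio of mir-21 to mir-22 ran from −0.10 to 0.35 and −0.35 to 0.20 in the deletion under control and ERH shRNAs and from −0.39 to 0.098 for the difference. mir-22, at 204 to 1717 counts per library, is the member limited most by depth.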
